A study of Mus musculus with 8 samples.

Results

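T cells and natural killer (NK) cells were followed in RNA of bone marrow B cells through 10 genes, chosen by name: Cd3d, Cd3e, Cd3g, Cd8a, Cd4, Nkg7, Gzma, Klrb1c, Ncr1 and Il2rb. All 10 were found among the 54532 genes with a deposited read count, and all 10 were among the 15305 genes that passed the filter on low counts. The series holds 3 RNA-seq libraries from mice after a sham operation (Sham) and 3 from mice after ovariectomy (OVX), in which removal of both ovaries serves as a surgical model of menopause. The B cells came out of bone marrow by magnetic bead selection, which T and NK cells should not pass. The labels of these libraries name no strain, age, genotype or time after surgery, and do not say whether each library came from its own mouse, so a p-value measures only the spread between libraries. A HIF-1α ChIP-seq sample and its input, also from bone marrow B cells, were not analysed here. The question was how much T and NK cell RNA the B cell fraction held in each library and whether it differed between OVX and Sham.

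A T cell recognises peptide on MHC molecules with an antigen receptor whose variable chains cannot signal by themselves, and the CD3 chains carry the signal into the cell. The coreceptors CD4 and CD8 bind MHC class II and class I and divide mature T cells into helper and cytotoxic cells. NK cells lack such a rearranged receptor, sense their targets through germline-encoded activating and inhibitory receptors, depend on interleukin-15, and kill with the same perforin and granzyme granules as cytotoxic T cells. In bone marrow, NK cells develop from lymphoid progenitors and memory T cells settle near stromal cells.

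The stretches just upstream of 4 members are printed because they belong to the gene groups the results turn on: 2 of the neighbouring CD3 genes, and 2 NK receptor genes whose reads went different ways across the libraries. RefSeq promoter windows on build GRCm38.p6 were found for 8 of the 10 members, and Cd4 and Il2rb had no entry. Each sequence is written 5′ to 3′ on the strand of its gene and ends at the base before the annotated gene, which leaves 233 bases for Cd3d and 250 for the others. They are Cd3d at chr9:44981536-44981768 on the plus strand, Cd3g at chr9:44980432-44980681 on the minus strand, Ncr1 at chr7:4337465-4337714 on the plus strand and Klrb1c at chr6:128788642-128788891 on the minus strand. Capitals mark exact matches, on either strand, to one of 7 searched words.
Cd3d: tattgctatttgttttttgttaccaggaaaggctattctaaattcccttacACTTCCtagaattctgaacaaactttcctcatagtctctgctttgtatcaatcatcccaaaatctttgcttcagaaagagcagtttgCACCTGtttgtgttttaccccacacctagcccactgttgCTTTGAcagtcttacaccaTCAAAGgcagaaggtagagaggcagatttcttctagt
Cd3g: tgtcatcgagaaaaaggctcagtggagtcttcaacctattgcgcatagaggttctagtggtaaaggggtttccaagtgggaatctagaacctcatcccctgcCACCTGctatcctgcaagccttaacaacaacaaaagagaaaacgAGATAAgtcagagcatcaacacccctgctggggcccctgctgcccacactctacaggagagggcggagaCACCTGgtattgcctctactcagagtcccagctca
Ncr1: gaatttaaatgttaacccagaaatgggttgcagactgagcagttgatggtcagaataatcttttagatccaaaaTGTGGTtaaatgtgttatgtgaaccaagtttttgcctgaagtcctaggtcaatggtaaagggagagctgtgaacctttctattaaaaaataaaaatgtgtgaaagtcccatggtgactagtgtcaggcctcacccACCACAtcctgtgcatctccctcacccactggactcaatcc
Klrb1c: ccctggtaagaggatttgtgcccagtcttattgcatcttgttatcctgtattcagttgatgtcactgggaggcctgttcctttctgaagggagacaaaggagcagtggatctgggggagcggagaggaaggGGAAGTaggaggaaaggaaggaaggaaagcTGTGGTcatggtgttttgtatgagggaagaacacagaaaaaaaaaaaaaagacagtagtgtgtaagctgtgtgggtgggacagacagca

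The searched words were TGTGGT for RUNX factors, CACCTG and CAGCTG for E-box proteins, GGAAGT for ETS factors, AGATAA for GATA factors, CTTTGA for TCF and LEF factors and ACGTG for the hypoxia response core, and no matches overlapped in the members. In the 250 bases before the start, TGTGGT was found in Nkg7, Gzma, Klrb1c and Ncr1, and in 14.2% of 27025 promoters of the same length. CACCTG was found in Cd3d, Cd3g and Gzma and in 17.1% of all promoters. GGAAGT was found in Cd3d, Cd3e and Klrb1c and in 19.99% of all. AGATAA occurred in Cd3g only, CTTTGA in Cd3d only and ACGTG in Cd3e only among the 8 members, against 10.3%, 14.1% and 16.6% of all promoters. CAGCTG occurred in none of the 8 and in 12.8% of all. The searched window of Cd3e runs into its annotated gene, and its matches to GGAAGT and ACGTG lie in that part. Both printed NK receptor stretches thus hold TGTGGT, and both printed CD3 stretches hold CACCTG, which was also found in Gzma and not in Cd3e. A match describes letters and is not a site.

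The libraries held between 23838775 and 33136701 counted reads each. Reads of the 10 genes together were between 0.00163% and 0.00573% of all counts, whereas 12 general B cell genes such as Cd79a and Spib held between 1.08% and 1.24%. B cell RNA was thus present in every library, which alone does not measure the purity of the fraction. The T and NK cell genes were read in each library too, most at low counts, with Gzma in OVX replicate 3 the only value at 0. Cd4 had the most reads of the 10, between 272 and 1081 per library. No library repeated another, as all pairs differed well beyond counting noise. Below, a level is in CPM, reads per 1000000 reads of the library after its total was scaled with edgeR's TMM factor, with the mean ± SD of 3 libraries, a log2 fold change is OVX against Sham with its standard error (SE), and the threshold for a call was an adjusted p of 0.05. In RNA of bulk cells, fewer cells of a type and less RNA per cell cannot be told apart.

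None of the 10 members passed the threshold in either direction, and 0% of the 15305 genes tested did (quasi-likelihood test in edgeR, Benjamini-Hochberg adjustment). Of the 10 members, 9 had a lower mean level in OVX and 1, Klrb1c, a higher one, and the median log2 fold change of the 10 was -1.36, against -0.0081 over all genes tested, of which 51.8% were lower. At an unadjusted p under 0.05 stood 2 members, Cd8a and Nkg7, both lower in OVX, as did 2.28% of all genes in that direction. The number of members rested on single libraries, since it was 6 without OVX replicate 1 and 4 without Sham replicate 1. It was 1 without Sham replicate 2 or OVX replicate 3, and 0 without Sham replicate 3 or OVX replicate 2. Over all genes, the number in either direction was 574 of 15305. It moved too, to 988 of 15977 without OVX replicate 1 and 2698 of 16051 without Sham replicate 1. Without Sham replicate 2 or OVX replicate 3 it was 360 of 15609 and 411 of 15678. Without Sham replicate 3 or OVX replicate 2 it was 286 of 15890 and 233 of 15737. DESeq2 and limma-voom also called 0 members and 0 genes. They had 4 and 1 members at an unadjusted p under 0.05, beside 755 of 27412 and 594 of 15305 genes. For none of the 10 did the 3 OVX libraries lie wholly below the 3 Sham libraries, a separation that 4.12% of all genes showed, nor wholly above them, as 4.33% did. Sham replicate 3 held the highest level of 8 of the 10 members, against 18.3% of all genes, and OVX replicate 2 the lowest level of 7, against 17.6%.

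**Figure D1:**
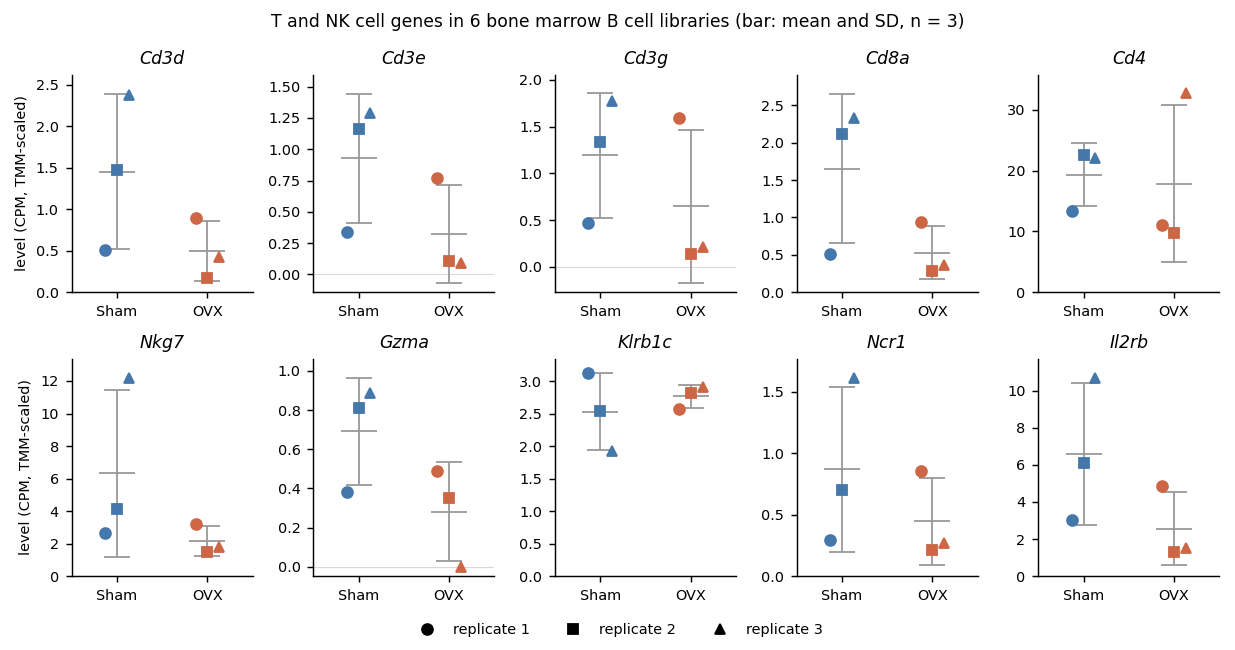
Level of each of the 10 genes in CPM (vertical axis, own scale per panel) in the 3 Sham and 3 OVX libraries, with the marker shape giving the replicate number and the grey bar the mean and SD (n = 3 per group). Sham replicate 3 is highest in 8 panels, and the groups overlap in all 10.

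Cd3d, Cd3e and Cd3g encode the delta, epsilon and gamma chains of CD3 and lie side by side on chromosome 9. In the RefSeq annotation of GRCm38.p6, Cd3g spans positions 44969572 to 44980431, Cd3d 44981769 to 44987052 and Cd3e 44998735 to 45009663. Cd3d (ENSMUSG00000032094) had 12, 42 and 59 reads in replicates 1, 2 and 3 of Sham and 22, 5 and 14 in replicates 1, 2 and 3 of OVX. Sham replicates 2 and 3 were the high libraries, OVX replicate 2 the low one, and Sham replicate 1 lay within the OVX range. The gap between Sham libraries exceeded counting error, since the exact Poisson 95% interval was 6.20 to 21.0 reads for replicate 1 and 44.9 to 76.1 for replicate 3. Intervals and floors here cover counting error only. The level of Cd3d averaged 0.499 ± 0.366 CPM over the OVX libraries and 1.45 ± 0.934 over the Sham libraries (SD, n = 3 each). The log2 fold change was -1.56 (SE 0.70, edgeR quasi-likelihood adjusted p = 0.811), and an exact two-sided permutation test of the 6 libraries gave p = 0.2, where 3 against 3 cannot go below 0.1. The fold change of Cd3d was -1.03 without Sham replicate 3 and -2.24 without OVX replicate 1.

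Cd3e (ENSMUSG00000032093) was counted with 8, 33 and 32 reads in Sham and with 19, 3 and 3 reads in OVX, in the order of the replicate numbers. It followed the library order of Cd3d but for the lowest 2, with Sham replicates 2 and 3 high and OVX replicates 2 and 3 at the floor of 3 counts. Its log2 fold change was -1.58 (SE 0.86), which became -3.19 without OVX replicate 1 and -1.10 without OVX replicate 3, and only 3 of the 6 libraries had at least 10 reads. Cd3g (ENSMUSG00000002033) was counted with 11, 38 and 44 reads in Sham and with 39, 4 and 7 in OVX. OVX replicate 1 stood among the high Sham libraries for Cd3g, and the other OVX libraries lay below all Sham libraries. The log2 fold change of Cd3g was the weakest of the 3 chains, -0.92 (SE 0.90, exact permutation p = 0.3), and it was -2.71 without OVX replicate 1. Added together, the 3 chains gave 31, 113 and 135 reads in Sham and 80, 12 and 24 in OVX, so that the highest library, Sham replicate 3, held 5.43 CPM and the lowest, OVX replicate 2, held 0.424 CPM.

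Cd8a (ENSMUSG00000053977, chromosome 6, 71373427 to 71379171) encodes the alpha chain of the class I coreceptor. Its reads numbered 12, 60 and 58 in Sham and 23, 8 and 12 in OVX. Again Sham replicates 2 and 3 stood above the other 4 libraries, and Sham replicate 1 lay inside the OVX range. The level averaged 0.527 ± 0.357 CPM over the OVX libraries and 1.65 ± 0.997 over the Sham libraries (SD, n = 3 each). Its log2 fold change of -1.67 (SE 0.67, edgeR quasi-likelihood adjusted p = 0.811) was the lowest among the 10 members. Cd8b1, which encodes the beta chain that pairs with it, had 2, 36 and 46 reads in Sham and 14, 4 and 7 in OVX, high in the same 2 libraries, and lowest in Sham replicate 1.

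Cd4 (ENSMUSG00000023274, chromosome 6, 124864693 to 124888247) encodes the class II coreceptor of helper T cells and in mice is also expressed by some dendritic cells and macrophages. It was counted with 316, 641 and 549 reads in Sham and with 272, 275 and 1081 reads in OVX. Cd4 departed from the CD3 genes in that OVX replicate 3, where the CD3 chains had 24 reads together, was its highest library. The level averaged 17.8 ± 12.9 CPM over the OVX libraries and 19.3 ± 5.20 over the Sham libraries (SD, n = 3 each), with a log2 fold change of -0.11 (SE 0.47, exact permutation p = 0.8). That sign was not stable: the log2 fold change was 0.18 without OVX replicate 2 and 0.14 without OVX replicate 1, and -0.90 without OVX replicate 3.

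Reads of Cd4 per read of Cd8a showed how far the coreceptors parted. The ratio was 26.3, 10.7 and 9.47 in Sham and 11.8, 34.4 and 90.1 in OVX, so it was highest in OVX replicate 3 and spanned 9.52-fold. The CD3 sum per read of Cd8a stayed between 1.5 and 3.48, a 2.32-fold span. Against the constant-region genes of the alpha beta T cell receptor (Trac, Trbc1 and Trbc2 summed, with 47, 128 and 138 reads in Sham and 91, 28 and 27 in OVX), the CD3 sum stayed between 0.429 and 0.978. CD3, CD8 and receptor constant genes thus kept ratios that spanned 2.32-fold and 2.28-fold over the libraries, and Cd4 per read of the CD3 sum spanned 13.2-fold. Cd4 per read of the complement genes C1qa, C1qb and C1qc, which mark tissue macrophages, lay between 0.0348 and 0.114, a 3.26-fold span. C1q reads were 7401, 18401 and 4831 in Sham and 4125, 5553 and 18343 in OVX. They were high in Sham replicate 2 and OVX replicate 3, the 2 libraries with the most Cd4 reads. Sham replicate 3 differed, with Cd4 at 22.1 CPM, near the 22.6 CPM of Sham replicate 2, but C1q at 194 CPM against 648 CPM. The part of macrophage RNA in the Cd4 counts was not tested.

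**Figure D2:**
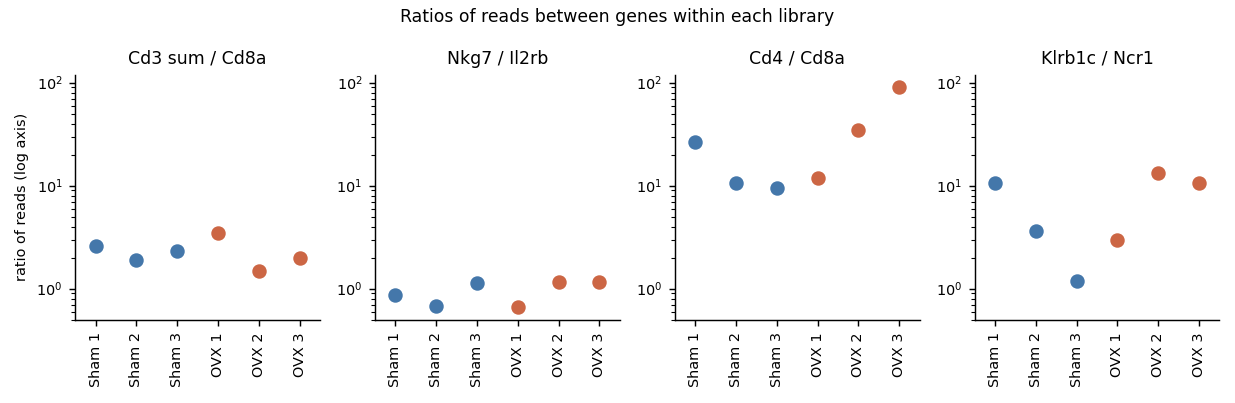
Ratio of reads of one gene to reads of another within each library (vertical axis, log scale), for the CD3 sum over Cd8a, Nkg7 over Il2rb, Cd4 over Cd8a and Klrb1c over Ncr1, with Sham in blue and OVX in orange. The first 2 ratios span 2.32-fold and 1.75-fold, and the last 2 span 9.52-fold and 11.1-fold.

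Nkg7 (ENSMUSG00000004612, chromosome 7, 43437138 to 43438246) encodes a membrane protein of cytotoxic granules in NK cells and CD8 T cells. It was counted with 63, 118 and 303 reads in Sham and with 79, 43 and 59 in OVX. Sham replicate 3 stood far above the other libraries, and Sham replicate 1 lay between OVX replicates 1 and 3. The level averaged 2.17 ± 0.914 CPM over the OVX libraries and 6.34 ± 5.13 over the Sham libraries (SD, n = 3 each). The log2 fold change was -1.55 (SE 0.59, edgeR quasi-likelihood adjusted p = 0.811), and it was -0.67 without Sham replicate 3. Gzma (ENSMUSG00000023132, chromosome 13, 113093824 to 113100981) encodes granzyme A, a granule protease. Its reads numbered 9, 23 and 22 in Sham and 12, 10 and 0 in OVX. With 0 reads in OVX replicate 3, the exact Poisson 95% interval reaches up to 3.69 counts, or 0.112 CPM, there. The floor of 3 counts stands at 0.0908 CPM in that library. The log2 fold change of Gzma was -1.35 (SE 0.89, exact permutation p = 0.2), and it was -0.72 without OVX replicate 3.

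Klrb1c and Ncr1 encode the NK cell receptors NK1.1 and NKp46, and they did not move together. Ncr1 (ENSMUSG00000062524, chromosome 7, 4337715 to 4345184) was counted with 7, 20 and 40 reads in Sham and with 21, 6 and 9 in OVX. Its top and bottom libraries were those of Nkg7, with Sham replicate 3 at the top and OVX replicate 2 at the bottom, and its log2 fold change was -0.99 (SE 0.74, exact permutation p = 0.5). That value was -0.22 without Sham replicate 3 and -1.82 without OVX replicate 1. Klrb1c (ENSMUSG00000030325, chromosome 6, 128778485 to 128788641) had 74, 72 and 48 reads in Sham and 63, 80 and 96 in OVX. It was lowest in Sham replicate 3, the library with the highest levels of 8 other members, and varied only 1.62-fold between libraries, against 7.60-fold for Ncr1. The level of Klrb1c averaged 2.77 ± 0.177 CPM over the OVX libraries and 2.53 ± 0.596 over the Sham libraries (SD, n = 3 each), with a log2 fold change of 0.13 (SE 0.25, exact permutation p = 0.6). Reads of Klrb1c per read of Ncr1 were 10.6, 3.6 and 1.2 in Sham and 3, 13.3 and 10.7 in OVX, an 11.1-fold span. Klrb1c belongs to a family of similar genes, and whether its reads are shared with relatives was not tested. Its relative Klrb1a had 2, 8 and 7 reads in Sham and 0, 2 and 0 in OVX. Klrb1b had 3, 4 and 7 in Sham and 4, 1 and 1 in OVX.

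Il2rb (ENSMUSG00000068227, chromosome 15, 78479256 to 78511621) encodes the beta chain through which NK cells and memory T cells receive interleukin-2 and interleukin-15. It was counted with 72, 173 and 265 reads in Sham and with 119, 37 and 51 in OVX. The order of the 6 libraries was that of Nkg7, with Sham replicate 3 at the top, Sham replicate 1 just below OVX replicate 1 and OVX replicates 3 and 2 at the bottom. The level averaged 2.57 ± 1.98 CPM over the OVX libraries and 6.60 ± 3.84 over the Sham libraries (SD, n = 3 each), with a log2 fold change of -1.37 (SE 0.62, edgeR quasi-likelihood adjusted p = 0.811), which was -0.86 without Sham replicate 3 and -2.20 without OVX replicate 1. Nkg7 per read of Il2rb stayed between 0.664 and 1.16, the narrowest span of the 8 ratios computed, 1.75-fold. Of the partner chains of the receptor, Il2ra, a marker of pre-B cells in marrow as well, had a log2 fold change of 0.38 (SE 0.30) and Il2rg, the common gamma chain, -0.18 (SE 0.17).

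Across the members, the 2 groups were thus not uniform. Sham replicate 1 lay within the OVX range for 9 of the 10 members, against 56.8% of all genes, and OVX replicate 1 lay within the Sham range for 9, against 64.5%. OVX replicate 2 lay below all Sham libraries for 9 members, against 25.8% of all genes, and OVX replicate 3 for 8, against 22.9%. All 10 members summed to 28.1 ± 11.9 CPM over the OVX libraries and 41.6 ± 16.3 over the Sham libraries (SD, n = 3 each). The log2 ratio of these means was -0.57, and it ranged from -0.27 without Sham replicate 3 to -0.92 without OVX replicate 3. Leaving out Cd4, the member with the most reads in every library, the other 9 members together had 268, 579 and 871 reads in Sham and 397, 196 and 251 in OVX. Their summed level averaged 10.2 ± 5.16 CPM over the OVX libraries and 22.2 ± 12.0 over the Sham libraries (SD, n = 3 each).

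RNA of other marrow cells varied over the same libraries. All 9 neutrophil genes listed, which include S100a8, S100a9 and Ngp, were measured, and their sum was 2241, 2951 and 8164 CPM in Sham and 3539, 990 and 1058 in OVX, between 0.0968% and 0.819% of all counts. None of the 9 was at 0, and the median log2 fold change was -1.26. The 6 basophil and mast cell genes, among them Prss34, Mcpt8 and Gata2, summed to 20.4, 30.8 and 63.8 CPM in Sham and to 29.9, 8.65 and 8.54 in OVX, with a median of -1.30. The 8 plasmacytoid dendritic genes, led by Bst2, Lair1 and Pacsin1, summed to between 61.9 and 123 CPM in Sham and between 51.1 and 70.9 in OVX, with a median of -0.94. Sham replicate 3 was the highest library of these 3 lists, as it was of 8 members. The part that differences in B cell purity had in the values of the 10 genes was not tested. The 8 macrophage genes, led by Vcam1, Mrc1 and C1qb, went another way, with 907, 1909 and 518 CPM in Sham and 475, 547 and 1628 in OVX and a median of -0.34. The 12 general B cell genes had a median of 0.05, and 1 of them, Ebf1, a transcription factor of B cell commitment whose OVX levels all lay above the Sham levels, stood at an unadjusted p under 0.05 with a log2 fold change of 0.35 (SE 0.12).

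**Figure D3:**
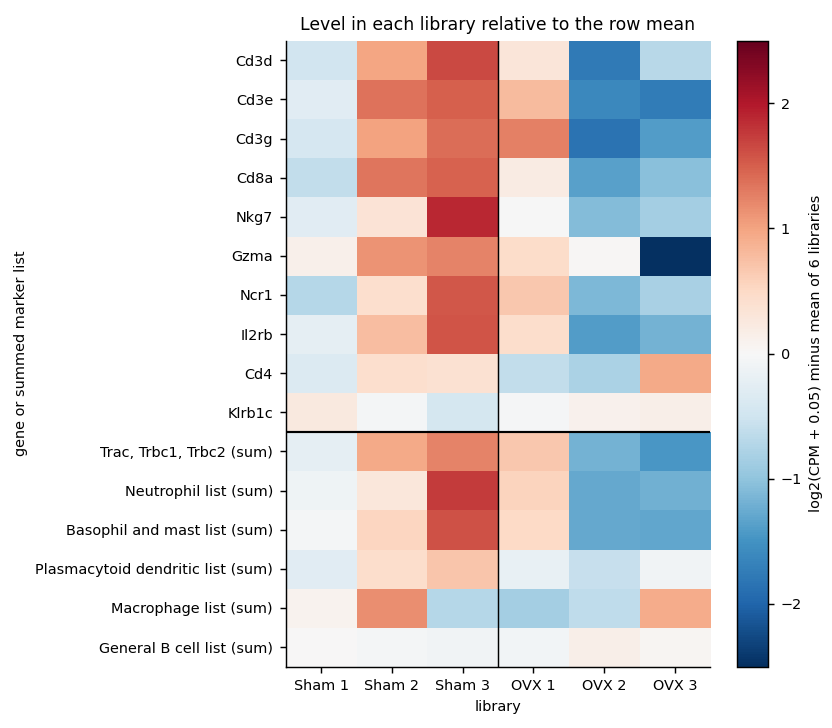
Level of each member and of the summed marker lists in each library, as log2(CPM + 0.05) minus the mean of the 6 libraries, with red above and blue below the mean and the colour scale ending at a difference of 2.5 in either direction. Sham replicate 3 is the reddest column for most members and for the neutrophil and basophil lists, and the rows of Cd4, Klrb1c and the macrophage list differ from it.

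The other genes of T and NK cells gave the background for the members. Of 56 further genes of T cell, NK cell and cytotoxic function, 36 passed the filter, none was called, 32 had a lower and 4 a higher mean in OVX, and the median log2 fold change was -0.82. At an unadjusted p under 0.05 stood 7 of these, all lower, against 2.28% of all genes in that direction. In the list of T cell receptor and coreceptor genes, 10 of 11 were tested and all 10 had a negative log2 fold change, with a median of -1.27. That list holds 5 of the members, so its values are not separate from theirs. Among them Trac, Trbc1 and Trbc2 stood at -1.34 (SE 0.65), -0.86 (SE 0.59) and -1.20 (SE 0.83). Cd247, the CD3 zeta chain, which NK cells use too, had 32, 21 and 26 reads in Sham and 28, 26 and 35 in OVX, with a log2 fold change of -0.0043 (SE 0.32). Trdc, of the gamma delta receptor, was not tested, with at most 12 reads.

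In the list of T cell signalling and surface genes, 15 of 22 were tested, 13 were lower and 2 higher in OVX, and the median was -0.35. Skap1, an adaptor of T cell receptor signalling, had 33, 47 and 41 reads in Sham and 19, 25 and 26 in OVX. All its OVX levels lay below all Sham levels, between 0.774 and 0.882 CPM against 1.39 to 1.66, and its log2 fold change was -0.94 (SE 0.26, edgeR quasi-likelihood adjusted p = 0.811). Tcf7, a transcription factor of T cell development and memory, was separated in the same way at -0.67 (SE 0.27), and the costimulatory receptor Cd28, with overlapping groups, stood at -1.54 (SE 0.62). The log2 fold changes of the most abundant genes of this list, the adhesion receptor Cd2, which mouse B cells also express, the kinase Lck and Ubash3a, were -0.07, -0.24 and -0.18. The kinase Zap70 stood at 0.13 and the adaptor Lat at 0.16. Zap70 lay between 6.32 and 7.94 CPM and Lat between 5.44 and 11.0 CPM, above Cd3d, Cd3e and Cd3g in every library. Whether T cells were the source of these reads was not tested.

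The list of NK receptors and regulators, which holds 2 members, had 14 of 20 genes tested, 12 of them lower in OVX, with a median of -0.92. Klre1, a lectin-like NK receptor, had 16, 25 and 44 reads in Sham and 12, 10 and 5 in OVX, and its groups did not overlap on the CPM scale. Its log2 fold change was -1.76 (SE 0.56, edgeR quasi-likelihood adjusted p = 0.811). The kinase Txk stood at -1.30 (SE 0.47) and the interleukin-18 receptor chain Il18rap at -1.17 (SE 0.66), while Slamf6, which B cells express as well, stood at 0.05 (SE 0.10). In the cytotoxic list, which holds 2 members, 6 of 12 genes were tested, 5 were lower in OVX, and the median was -1.34. The cathepsin Ctsw stood at -1.33 (SE 0.48) and the chemokine Ccl5 at -1.46 (SE 0.61). Perforin, Prf1, stood at -0.56 (SE 0.36). Gzmb, Gzmc, Gzmk, Fasl, Ifng and Xcl1 did not pass the filter and had at most 19 reads in any library. With no filter on low counts, Gzmb, with 1, 17 and 11 reads in Sham and 3, 1 and 2 in OVX, and Gzmk, with 0, 7 and 2 in Sham and 0 in each OVX library, stood at an unadjusted p under 0.05, and no gene was called. In the list of the interleukin-2 and interleukin-15 receptor and its signalling, which holds the member Il2rb, all 9 genes were tested. Of these, 6 were lower and 3 higher, and the median was -0.13.

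**Figure D4:**
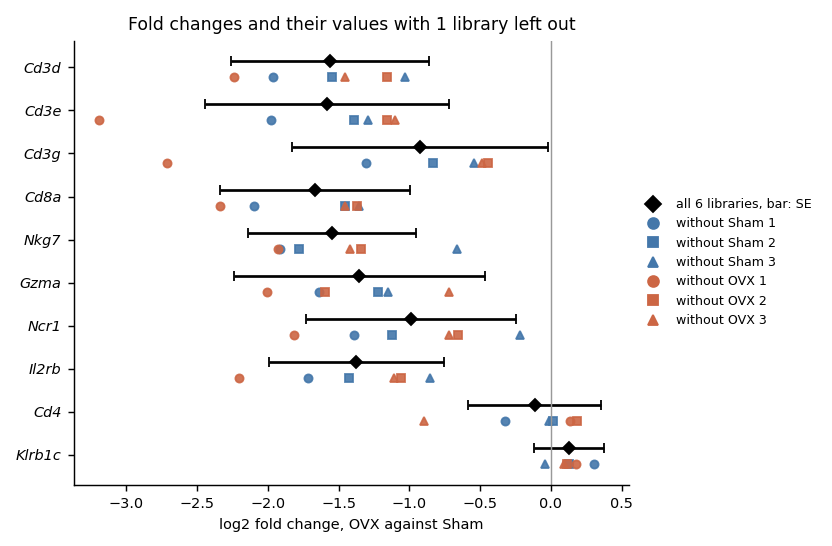
Log2 fold change of OVX against Sham (horizontal axis) for each member, with all 6 libraries as a black diamond with its standard error and with 1 library left out as coloured markers. Cd8a spans -2.34 to -1.35 and Nkg7 -1.93 to -0.67 with a library left out, whereas Cd4 and Klrb1c lie on both sides of 0.

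None of the 5 genes whose pattern over the libraries was most like the CD3 sum or the NK sum stood in the T cell, NK cell or cytotoxic lists. By Pearson's r of log2(CPM + 0.5) over 6 libraries, given as a description, the genes nearest to the CD3 sum were Lilrb4a (0.996), Ankrd16 (0.995), F630028O10Rik (0.995), Txnrd2 (0.994) and Tsc2 (0.992). Lilrb4a, an inhibitory receptor of myeloid cells and plasma cells, had 182, 615 and 910 reads in Sham and 473, 70 and 107 in OVX. Pearson's r takes no account of the size of a change. Ankrd16 had 1706, 2164 and 1941 reads in Sham and 1872, 1947 and 2335 in OVX, a far smaller spread than the CD3 sum. The genes nearest to the sum of Klrb1c, Ncr1, Gzma and Nkg7 were Car2 (0.997), F13a1 (0.996), Alas1 (0.995), Fbxo10 (0.995) and Tspan15 (0.995). With so few libraries likeness is common: of 15295 genes outside the members, 214 had an r over 0.95 with the CD3 sum and 194 with the NK sum.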

How the data were processed

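RNA of bone marrow B cells was sequenced in 3 Sham and 3 OVX libraries, grouped by the treatment label, with replicate numbers from the titles. The authors deposited raw read counts per Ensembl gene, not normalized. The submitters' processing notes name CASAVA, Bowtie 0.12.2 and build mm10 without giving their role. The counting tool, annotation and use of strand are not given in the sources used here, so reads of overlapping or similar genes cannot be assigned with certainty. The labels name Trizol for the RNA, the study's methods another reagent.

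The count analysis used edgeR 4.0.16 in R 4.3.3: filterByExpr by group, TMM factors and the quasi-likelihood test of OVX against Sham without a block, with Benjamini-Hochberg adjustment over 15305 genes. The SE of a log2 fold change was worked back from this test, as its absolute value over the square root of the F statistic. For single members, levels on the log2(CPM + 0.5) scale went into an exact permutation test, two-sided. Poisson intervals are exact at 95%, and the floor is 3 counts per library. Python 3.11.15 with pandas 2.3.3 and scipy 1.17.1 was used for tables. The scripts were tested on simulated data. Alternatives were DESeq2 1.42.0, limma-voom (limma 3.58.1), scaling by general B cell genes, by upper quartiles or by library size alone, a minimum mean of 10 counts or no filter, the replicate number as a block, and each library left out.

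Symbols came from a gene name table, with a match for 54409 of 54532 identifiers, and Fyb1 was matched through its older symbol Fyb. Coordinates and promoters are RefSeq's for GRCm38.p6. The 12 marker lists, with the members counted as a list, and the tests were chosen with earlier results of these data known. Named were the members, up to 10 list genes at an unadjusted p under 0.05 or with separated groups, the 3 most abundant genes of each list (1 is not reported here), and the 5 genes most like the CD3 sum and the NK sum. Genes named beyond these, such as Tcf7, Ccl5, Cd247, Cd8b1, Zap70 and Lat, were chosen after their values were seen.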

Additional observations from a re-analysis of the deposited data

How the results depend on the processing

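No member and no gene at all passed an adjusted p of 0.05 under any of the 14 alternatives, where the lowest adjusted p of a member was 0.273, without Sham replicate 1 (edgeR's quasi-likelihood test). Of 140 log2 fold changes of members, 136 kept their sign. The 4 that did not were Cd4, at 0.013 without Sham replicate 2 and at 0.14 and 0.18 when OVX replicate 1 or 2 was left out, and Klrb1c, at -0.038 without Sham replicate 3. With 1 library left out, Cd4 ranged from -0.90 to 0.18, Klrb1c from -0.038 to 0.30, and the number of members higher in OVX from 0 to 2. Members at an unadjusted p under 0.05 numbered 2, against 4 with DESeq2 and with no filter, 1 with limma-voom, and 0 to 6 with a library left out, the most without OVX replicate 1. Over all genes that number was 574, against 755 with DESeq2, 1269 with no filter and 594 with limma-voom. It was 233 to 2698 with a library left out, the most without Sham replicate 1. Same-numbered libraries correlated at -0.41, -0.19 and -0.28 in their deviations from the group means. The replicate numbers are not stated to pair libraries, and with 3 libraries per group these values cannot settle whether they do. The replicate block left 206 genes and 0 members at an unadjusted p under 0.05 and gave -1.47 for Cd3g. The causes were not tested. With general B cell scaling the median over all genes went from -0.0081 to -0.085 on the log2 scale. At 3 to 60 reads of a CD3 gene or Cd8a per library, counting error alone limits a single value.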

Other observations

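Of the conventional dendritic cell genes, 5 of 6 were tested. Flt3, a receptor of early lymphoid and dendritic progenitors, had 118, 131 and 186 reads in Sham and 87, 92 and 136 in OVX, and all its OVX levels in CPM lay below all Sham levels, with a log2 fold change of -0.64 (SE 0.24). Cd209a, a lectin of dendritic cells and monocytes, was separated in the same way at -1.63 (SE 0.59). Zbtb46 and Clec9a, the other abundant genes of the list, stood at -0.70 and -0.18. Itgae, the only tested gene of the list that was higher in OVX, stood at 0.44 (SE 0.39), and Xcr1 had at most 18 reads. None passed an adjusted p of 0.05 in edgeR's quasi-likelihood test. Among the other marrow cell lists, Cpa3, a mast cell and basophil protease, stood at -1.32 (SE 0.52) and Runx2, which plasmacytoid dendritic cells express, at -1.62 (SE 0.66), both with overlapping groups.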
